A study of Mus musculus with 10 samples.

Results

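RANKL, OPG and M-CSF signaling was examined through 6 genes in RNA-seq of mouse osteocytes. The genes were Tnfsf11 (RANKL), Tnfrsf11b (osteoprotegerin, OPG), Tnfrsf11a (RANK), Csf1 (M-CSF), Il34 (IL-34) and Csf1r (the M-CSF receptor). They were chosen by name as the ligands and receptors of these pathways, with earlier results of these data known, and all 6 were found among the 22548 genes of the deposited table. The samples were osteocytes from the bone of C57BL/6 mice, labelled male and 8 weeks old, in 2 groups of 5. The MM group carried Vk12598 cells, a murine myeloma line that had been injected into the femur, and the No MM group served as control and received no myeloma cells. No other allele or agent distinguished the groups, and each mouse gave 1 library. Bone lesions were assessed 6 weeks after injection, and osteocytes were released from bone pieces by repeated collagenase and EDTA digestion, with no sort described. The study asked whether osteocytes contribute to the bone destruction of myeloma, in part through the cytokines that drive osteoclast formation.

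Osteoclasts, the cells that resorb bone, arise from the monocyte and macrophage lineage. M-CSF and IL-34 bind the same receptor, CSF1R, and keep the precursors alive and dividing. RANKL, a membrane-bound member of the TNF family that osteocytes and other stromal cells make, binds RANK on these precursors and switches on the osteoclast program. OPG is a soluble decoy receptor that captures RANKL, so the balance of RANKL to OPG is commonly used as a measure of the osteoclast-forming drive of a tissue.

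The study examined protein binding further upstream in the Tnfsf11 promoter, at a site outside the bases printed here, and the start-proximal sequence is shown for context. The 250 bases upstream of the annotated Tnfsf11 start (RefSeq, GRCm38.p6, chr14:78308044-78308293, minus strand) are printed 5′ to 3′, with a TATA box (TTTATAA) and a match to the AP2 motif that the study spelled out (GCCNNNGG) in capitals.
Tnfsf11: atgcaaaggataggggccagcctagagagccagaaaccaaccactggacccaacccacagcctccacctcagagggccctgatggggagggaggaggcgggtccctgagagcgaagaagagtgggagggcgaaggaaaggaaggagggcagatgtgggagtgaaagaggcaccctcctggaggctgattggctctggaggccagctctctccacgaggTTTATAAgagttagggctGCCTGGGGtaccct
The TATA box letters lay 32 to 26 bases before the start and the GCCNNNGG match 14 to 7 bases before it. On either strand, TTTATAA occurred in 3.6% and GCCNNNGG in 48.6% of the 32851 mouse promoter sequences searched over the same length, and the motifs do not overlap in the Tnfsf11 sequence. RefSeq promoter sequences were matched for 3 of the 6 genes. The Tnfrsf11a sequence held GCCNNNGG at 207 to 200 and, on the minus strand, at 108 to 101 bases before its start, and the Csf1 sequence held neither motif. A match describes letters only, was not tested as a binding site, and is not the site that the study examined.

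Between 31099174 and 39466332 reads were counted per library, and values are given as CPM, read counts relative to TMM-scaled library totals. At this depth, 3 counts corresponded to 0.0709 to 0.114 CPM, and every one of the 6 genes was above this limit in all 10 libraries. Immunoglobulin genes took 26.6% of the reads in No MM 3 and 29.0% in No MM 4 against 0.637% to 3.86% in the other 8 libraries. All mice were labelled male, yet 7 libraries (No MM 1 to 4 and MM 6 to 8) held at most 1.27 CPM on 4 Y-linked genes and at least 36.2 CPM on Xist. The remaining 3 (No MM 5, MM 9 and MM 10) held at least 142 CPM on the Y-linked genes and at most 6.202 CPM on Xist. Group differences are therefore also given without No MM 3 and No MM 4 and within the 7 libraries. The 7 libraries still include No MM 3 and No MM 4 among their controls. No setting left out both these libraries and those with Y-linked reads, so differences within the 7 libraries also carry the immunoglobulin-rich controls. Osteocyte markers were present in every library, with Dmp1, a bone matrix protein, at 112 to 885 CPM and Sost, which encodes sclerostin, at 68.3 to 995 CPM. Markers of other bone and marrow cells were also present. The osteoclast enzyme Acp5 reached 387 to 6341 CPM and the myeloid gene Lyz2 945 to 5400 CPM. In such bulk samples, fewer cells of a type and less RNA per cell cannot be told apart.

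None of the 6 genes differed between MM and No MM osteocytes beyond the spread between mice. Adjusted p was 0.526 or higher for all 6 (edgeR quasi-likelihood test, adjusted over 16186 genes). At an unadjusted p under 0.05, 0 of the 6 genes passed, against 14.1% of all tested genes (3.81% higher and 10.3% lower in MM). The groups overlapped for all 6, while 1.41% of all tested genes had groups that did not overlap (0.729% higher and 0.68% lower in MM). No gene of the whole table passed the adjusted threshold in edgeR (smallest adjusted p 0.314, with 2281 genes at an unadjusted p under 0.05), and DESeq2 called 179 genes, none of them among the 6. The fitted log2 fold changes (MM over No MM) were near 0 for Tnfsf11 and Tnfrsf11b and reached 0.71 for Csf1, each with a standard error (SE) of 0.44 to 0.51. As log2 differences over all 10 libraries, the values were −0.13 for Tnfsf11, −0.13 for Tnfrsf11b and 0.50 for Tnfrsf11a. They were 0.79 for Csf1, 0.60 for Il34 and 0.44 for Csf1r.

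**Figure D1:**
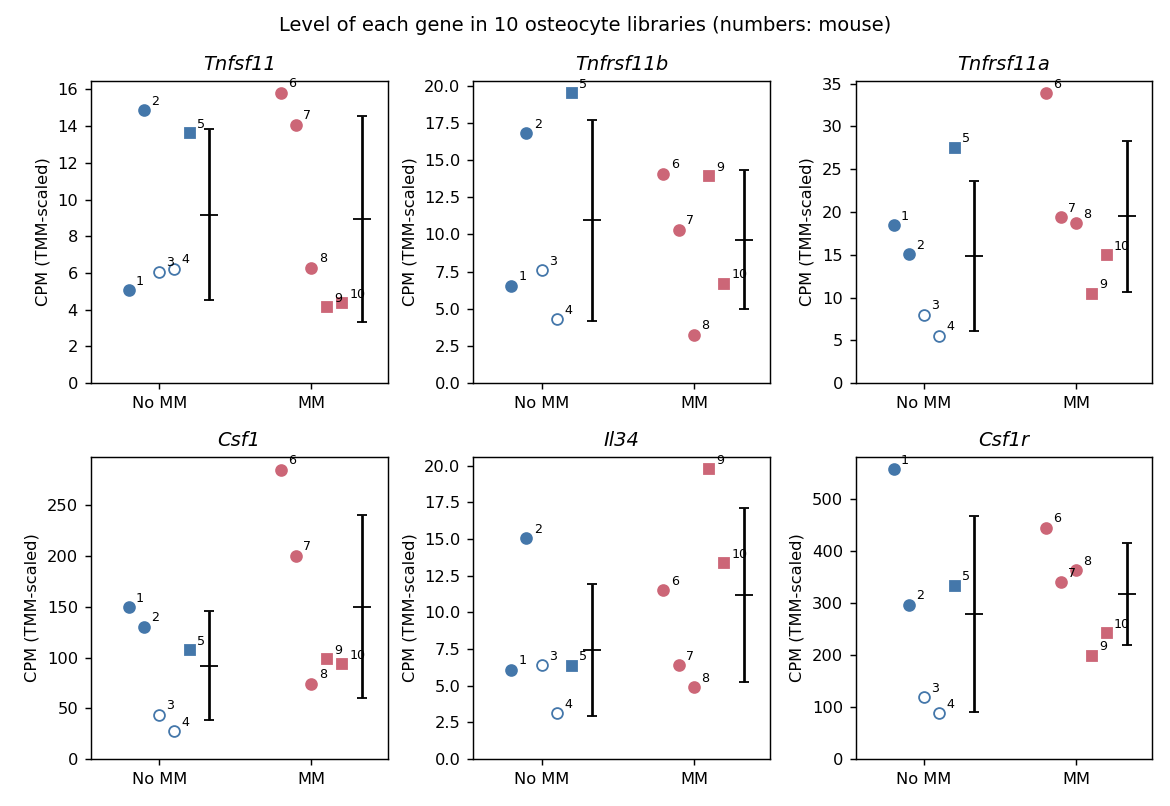
Level of each of the 6 genes (y axis, CPM after TMM scaling) in the 5 No MM (blue) and 5 MM (red) libraries, with the mouse number beside each point and the mean ± SD of each group as a black bar. Open circles are No MM 3 and No MM 4, and squares are the 3 libraries with Y-linked reads. The groups overlap for every gene, and the open circles are lowest for Tnfrsf11a, Csf1 and Csf1r.

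Tnfsf11, the gene of the ligand RANKL (ENSMUSG00000022015, GRCm38, chr14:78277445-78308043, minus strand), was counted with 133 to 612 reads per library. In No MM mice 1 to 5 its level was 5.07, 14.9, 6.07, 6.24 and 13.6 CPM. In MM mice 6 to 10 it was 15.8, 14.1, 6.29, 4.13 and 4.35 CPM. Within each group, 2 mice were high and 3 were low, and the values of the groups were interleaved. The 4 high libraries (MM 6, No MM 2, MM 7 and No MM 5) lay between 13.6 and 15.8 CPM and the other 6 between 4.13 and 6.29 CPM. The means were 9.17 ± 4.67 CPM in No MM and 8.94 ± 5.60 CPM in MM (SD, n = 5 each). The log2 fold change for Tnfsf11 was −0.04 (SE 0.48, 95% interval −1.14 to 1.06), with an adjusted p of 0.979 in edgeR. An exact permutation test over all splits of the 10 mice into groups of 5 gave p = 0.706 (two-sided, smallest possible p 0.00794). Without No MM 3 and No MM 4 the log2 difference was −0.41 (exact permutation p = 0.554), and within the 7 libraries without Y-linked reads it was 0.61 (exact permutation p = 0.257, smallest possible p 0.0286). The sign of this difference therefore turned with the libraries used, and neither value passed the test.

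Tnfrsf11b encodes OPG, the decoy that binds RANKL (ENSMUSG00000063727, chr15:54250619-54278484, minus strand). Its level in No MM mice 1 to 5 was 6.55, 16.8, 7.59, 4.28 and 19.5 CPM. The levels in MM mice 6 to 10 were 14.1, 10.3, 3.26, 13.9 and 6.69 CPM. The extremes lay in different groups, with the highest value in No MM 5 and the lowest in MM 8. The means were 11.0 ± 6.76 CPM in No MM and 9.65 ± 4.69 CPM in MM, with a log2 fold change of −0.18 (SE 0.49, 95% interval −1.32 to 0.96, edgeR adjusted p 0.887). MM 9 stood apart from MM 10 for Tnfrsf11b but not for Tnfsf11, since its Tnfrsf11b level was 13.9 CPM and its Tnfsf11 level 4.13 CPM, the lowest of all 10 libraries. The log2 difference of Tnfrsf11b was −0.60 without No MM 3 and No MM 4 (exact permutation p = 0.393), and within the 7 libraries it was 0.01 (exact permutation p = 0.971).

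The ratio of Tnfsf11 to Tnfrsf11b, each as reads per kilobase of gene length, does not depend on the scaling of libraries. In No MM mice 1 to 5 the ratio was 0.974, 1.11, 1.01, 1.84 and 0.880. It was, in MM mice 6 to 10, 1.42, 1.72, 2.43, 0.374 and 0.819. The ratio was thus highest in MM 8 and lowest in MM 9, where OPG transcripts exceeded RANKL transcripts. MM 6 and MM 7 lay inside the No MM range, MM 8 above it, and MM 9 and MM 10 below it. The 95% counting intervals of the extremes were 1.98 to 2.98 for MM 8 and 0.312 to 0.449 for MM 9, and they cover counting error only. The ratio was above 1 beyond its counting interval in No MM 4, MM 6, MM 7 and MM 8, and below 1 beyond it in No MM 5, MM 9 and MM 10. On the log2 scale it averaged 0.16 ± 0.42 in No MM and 0.17 ± 1.05 in MM (SD, n = 5 each). The difference was 0.01, with an SE of 0.51 and an exact permutation p of 0.992, adjusted over 6 ratios to 0.992. The difference was 0.19 with No MM 3 and No MM 4 left out (exact permutation p = 0.768). Within the 7 libraries without Y-linked reads it was 0.60 (exact permutation p = 0.143). There MM 6, MM 7 and MM 8 stood at 1.42, 1.72 and 2.43, and No MM 1 to 4 at 0.974, 1.11, 1.01 and 1.84. The groups overlapped, since No MM 4 lay above MM 6 and MM 7.

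**Figure D2:**
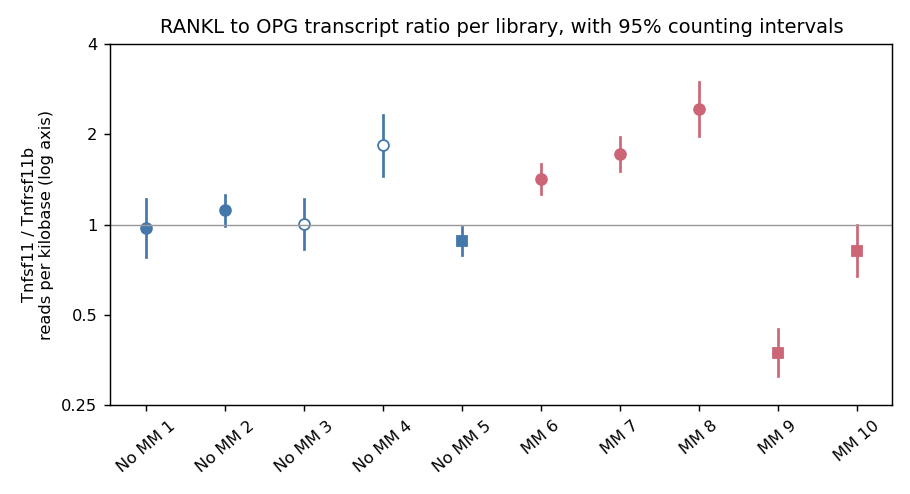
Ratio of Tnfsf11 to Tnfrsf11b reads per kilobase (y axis, log scale) in each library, with 95% counting intervals as bars, No MM in blue and MM in red. Open circles are No MM 3 and No MM 4, squares are the 3 libraries with Y-linked reads, and the line marks equal levels. The MM libraries run from 0.374 in MM 9 to 2.43 in MM 8, a wider span than the No MM range of 0.880 to 1.84.

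Tnfrsf11a, the gene of the RANKL receptor RANK (ENSMUSG00000026321, chr1:105780718-105847981, plus strand), was read at 18.4, 15.1, 7.98, 5.55 and 27.5 CPM in No MM mice 1 to 5. The MM mice 6 to 10 had 33.9, 19.4, 18.7, 10.4 and 15.0 CPM. The lowest libraries were No MM 3 and No MM 4, and the highest was MM 6. The means were 14.9 ± 8.77 CPM in No MM and 19.5 ± 8.81 CPM in MM, with a log2 fold change of 0.39 (SE 0.44, 95% interval −0.62 to 1.40, edgeR adjusted p 0.699). Without No MM 3 and No MM 4 the No MM mean was 20.4 ± 6.46 CPM (n = 3), and the log2 difference was −0.12 (exact permutation p = 0.857). Within the 7 libraries, which include No MM 3 and No MM 4, it was 1.13 (exact permutation p = 0.114). RANK is carried by osteoclast precursors and osteoclasts, and the osteoclast effector list (19 genes) summed to 1822 to 1850 CPM in No MM 3 and No MM 4 against 4723 to 17580 CPM in the other 8 libraries. Other lists were low there too, such as osteoblasts (2941 to 4179 against 14560 to 51120 CPM), whereas plasma cell genes were high. Over those 8 libraries, Tnfrsf11a had r = 0.83 with the osteoblast list and 0.66 with the osteoclast effector list (exact permutation p = 0.0133 and 0.0678, adjusted 0.159 and 0.232). Without the 2 libraries farthest from each list's median, r was 0.45 and 0.70. Relative to the geometric mean of the osteoclast genes Acp5, Ctsk and Calcr, the log2 difference of Tnfrsf11a between MM and No MM was 0.33 (exact permutation p = 0.532, adjusted 0.992), and 0.77 without No MM 3 and No MM 4 (exact permutation p = 0.161). The part of osteoclasts or of other cells in the Tnfrsf11a values was not tested.

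Csf1 encodes M-CSF (ENSMUSG00000014599, chr3:107741048-107760469, minus strand) and was the ligand with the highest level. In No MM mice 1 to 5 it was 149.8, 130.2, 43.5, 27.4 and 107 CPM. In MM mice 6 to 10 it was 285, 200.2, 74.3, 98.6 and 93.3 CPM. MM 6 and MM 7 exceeded every No MM library, whereas the other 3 MM libraries lay below No MM 1, No MM 2 and No MM 5. The means were 91.7 ± 53.8 CPM in No MM and 150.3 ± 90.0 CPM in MM, and the log2 fold change of 0.71 was the largest of the 6 genes (SE 0.51, 95% interval −0.47 to 1.89, edgeR adjusted p 0.526). The log2 difference of Csf1 over all 10 libraries was 0.79 (exact permutation p = 0.238). The mean of No MM 3 and No MM 4 was 35.5 CPM and that of the other No MM mice 129 ± 21.3 CPM (n = 3). Without those 2 libraries the log2 difference was 0.04 (exact permutation p = 0.946), and the edgeR log2 fold change was 0.20. Within the 7 libraries, which include them, the log2 difference was 1.22 (exact permutation p = 0.200).

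Il34, which encodes the other CSF1R ligand (ENSMUSG00000031750, chr8:110741829-110805924, minus strand), was lower than Csf1 in every library. In No MM mice 1 to 5 it was 6.09, 15.1, 6.40, 3.12 and 6.35 CPM. In MM mice 6 to 10 it was 11.5, 6.38, 4.89, 19.8 and 13.4 CPM. The highest library was MM 9 and the next was No MM 2, so the groups overlapped over most of their range. The means were 7.40 ± 4.50 CPM in No MM and 11.2 ± 5.94 CPM in MM, with a log2 fold change of 0.59 (SE 0.47, 95% interval −0.48 to 1.67, edgeR adjusted p 0.570). The exact permutation p for Il34 was 0.270. It was 0.732 without No MM 3 and No MM 4 (log2 difference 0.24) and 0.886 within the 7 libraries (log2 difference 0.12). Leaving out No MM 2, the highest control, moved the log2 fold change of Il34 to 1.02 (edgeR unadjusted p 0.044, adjusted 0.274). Il34 shares 22 and 75 exon bases with the antisense genes Gm15894 and Gm15895, which held at most 9 and 2 reads in any library.

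The balance of the CSF1R ligands was compared as the ratio of Csf1 to Il34 per kilobase. It was 10.6, 3.72, 2.93, 3.78 and 7.28 in No MM mice 1 to 5, and 10.7, 13.5, 6.53, 2.15 and 3.01 in MM mice 6 to 10. M-CSF transcripts were the majority in every library, at 68.2% of the summed Csf1 and Il34 level in MM 9 to 93.1% in MM 7. The mean log2 ratio was 2.33 ± 0.78 in No MM and 2.51 ± 1.15 in MM, a difference of 0.19 (exact permutation p = 0.754, adjusted 0.992). MM 9, MM 10 and No MM 3 were the lowest on this ratio. Of the libraries with Y-linked reads, MM 9 and MM 10 were low on it, whereas No MM 5 was the fourth highest of all 10. Within the 7 libraries without such reads the difference in the Csf1 to Il34 ratio was 1.10 on the log2 scale (exact permutation p = 0.0857), and without No MM 3 and No MM 4 it was −0.21 (exact permutation p = 0.804).

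Csf1r, the gene of their shared receptor (ENSMUSG00000024621, chr18:61105572-61132149, plus strand), had the highest level of the 6 genes. In No MM mice 1 to 5 it was 558, 297, 119, 87.6 and 333 CPM. The values for MM mice 6 to 10 were 445, 340.4, 363, 198 and 241 CPM. The No MM group held the highest library (No MM 1) and the 2 lowest (No MM 3 and No MM 4), so that the MM values lay inside its range. The means were 279 ± 189 CPM in No MM and 318 ± 98.4 CPM in MM, with a log2 fold change of 0.19 (SE 0.46, 95% interval −0.87 to 1.25, edgeR adjusted p 0.873). Leaving out No MM 3 and No MM 4 gave a log2 difference of −0.32 (exact permutation p = 0.375). Within the 7 libraries, which include them, the log2 difference was 0.90 (exact permutation p = 0.343). CSF1R marks monocytes, macrophages and osteoclast precursors. The macrophage list (19 genes) summed to 2370 to 2713 CPM in No MM 3 and No MM 4 and to 4387 to 9727 CPM in the other 8 libraries, and the macrophage gene Adgre1 was present at 21.4 to 153 CPM. Relative to Adgre1, Cd68 and Mertk, the log2 difference of Csf1r between the groups was 0.04 (exact permutation p = 0.873, adjusted 0.992), and the part of macrophages in the Csf1r level was not tested. Csf1r shares 873 exon bases with the antisense gene Hmgxb3, read at 27.1 to 58.2 CPM, and whether the counting used strand is not given in the sources used here.

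**Figure D3:**
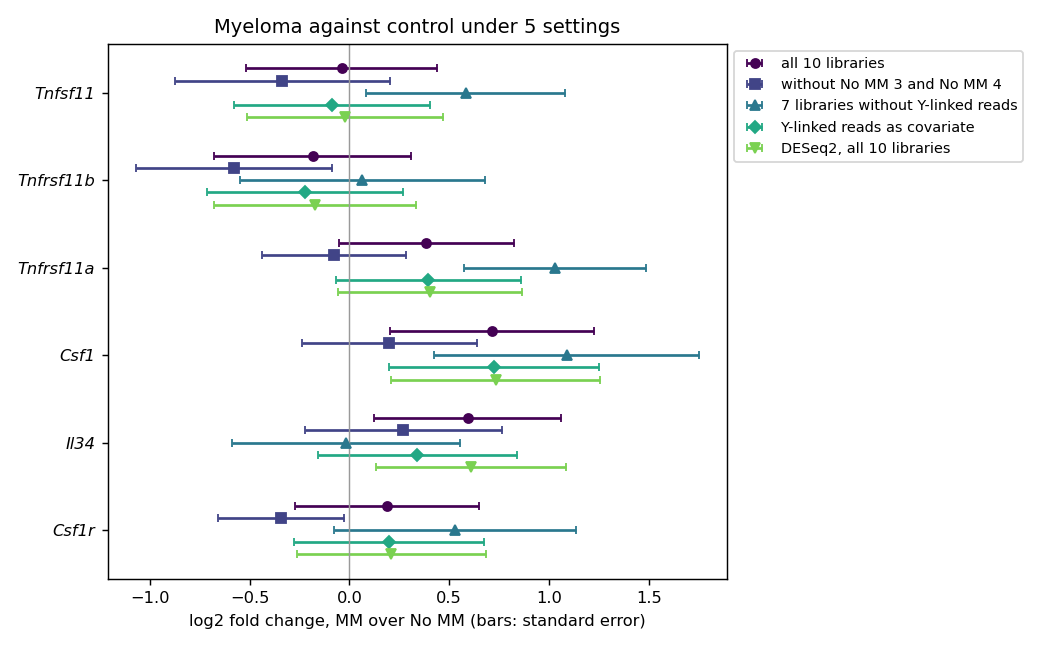
Log2 fold change of MM over No MM (x axis) for each of the 6 genes under 5 settings: all 10 libraries in edgeR, without No MM 3 and No MM 4, within the 7 libraries without Y-linked reads, with Y-linked reads as a covariate, and in DESeq2. Bars are standard errors. Values near 0 for Tnfsf11 and Tnfrsf11b shift to either side, Csf1 lies between 0.20 and 1.09, and no value passed the adjusted threshold.

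By their mean level per gene length, the 6 genes fell into an upper and a lower range. Csf1r stood at 63.4 ± 30.6 RPKM (CPM per kilobase of gene length, mean ± SD over 10 libraries) and Csf1 at 29.0 ± 18.3 RPKM. Il34, Tnfsf11, Tnfrsf11b and Tnfrsf11a stood at 5.17 ± 2.98, 4.05 ± 2.17, 3.65 ± 1.96 and 3.42 ± 1.72 RPKM. Csf1r exceeded Csf1 in 10 of 10 libraries (mean log2 difference 1.22 ± 0.51, exact sign-flip permutation p = 0.00195, the smallest possible, adjusted over 5 pairs 0.00488). Csf1 exceeded Il34 in 10 of 10 libraries as well (2.42 ± 0.93, adjusted exact permutation p = 0.00488). Values of different libraries overlapped, with Csf1 at 6.56 RPKM in No MM 4 and Il34 at 11.0 RPKM in MM 9. The lower 4 genes did not differ from their neighbors in the order beyond the spread between libraries. Il34 was above Tnfsf11 in 5 of 10 libraries and Tnfsf11 above Tnfrsf11b in 6 of 10 (adjusted exact permutation p = 0.635 for each). Tnfrsf11b was above Tnfrsf11a in 5 of 10 (adjusted exact permutation p = 0.820). For scale, the osteocyte genes Dmp1, Phex and Fgf23 had medians of 120, 16.7 and 0.914 RPKM. RANKL and OPG transcripts were thus low beside those of the matrix gene Dmp1, but not beside those of Fgf23.

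**Figure D4:**
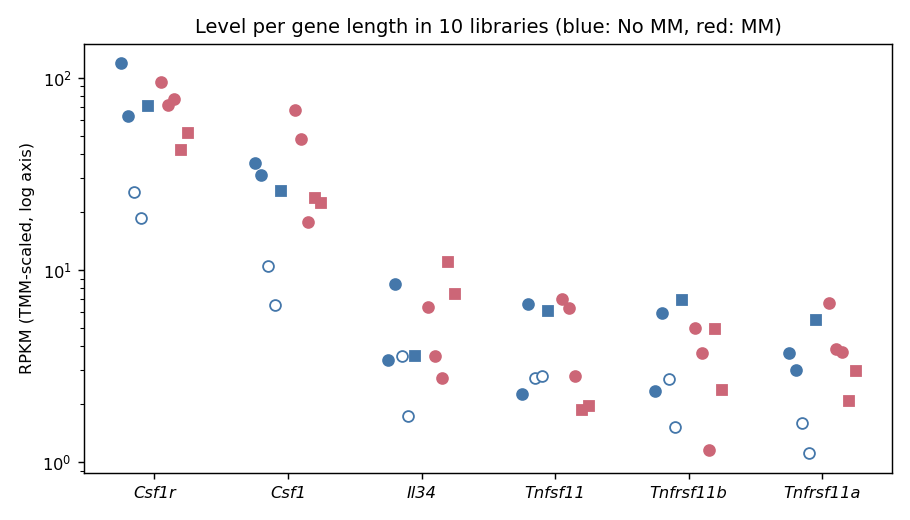
Level per gene length of the 6 genes (y axis, RPKM, log scale) in each of the 10 libraries, No MM in blue and MM in red, with open circles for No MM 3 and No MM 4 and squares for the 3 libraries with Y-linked reads. Csf1r lies above Il34, Tnfsf11, Tnfrsf11b and Tnfrsf11a, whose levels overlap. Csf1 lies above them within each library, but its lowest value (6.56 RPKM in No MM 4) is below the highest of Il34 (11.0 RPKM in MM 9).

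The spread between mice was wide for all 6 genes. The coefficient of variation in No MM ran from 50.9% for Tnfsf11 to 67.8% for Csf1r, against a median of 38.0% over all tested genes. In MM it ran from 31% for Csf1r to 62.6% for Tnfsf11, against a median of 21.9%. The highest library exceeded the lowest 3.83-fold for Tnfsf11, 5.98-fold for Tnfrsf11b, 6.10-fold for Tnfrsf11a, 10.4-fold for Csf1, 6.33-fold for Il34 and 6.36-fold for Csf1r. Leaving out No MM 3 and No MM 4 narrowed this to 3.24-fold for Tnfrsf11a, 3.84-fold for Csf1, 4.04-fold for Il34 and 2.81-fold for Csf1r, and left it as it was for Tnfsf11 and Tnfrsf11b, whose extremes lay elsewhere.

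The levels of the RANKL and OPG genes were set beside the osteocyte marker list. The 4 libraries with high Tnfsf11 were also the 4 with the highest mean log2 CPM over the 12 osteocyte markers, in the order No MM 2, MM 6, MM 7 and No MM 5. Over the 8 libraries without No MM 3 and No MM 4, Tnfsf11 correlated with the list mean at r = 0.78 and rho = 0.76 (exact permutation p = 0.0320 and 0.0368, adjusted over 24 relations 0.216 and 0.220). Without the 2 libraries farthest from the median, MM 8 and MM 10, r was 0.85. Tnfrsf11b correlated with the same list at r = 0.89 and rho = 0.79 (exact permutation p = 0.00327 and 0.0279, adjusted 0.0786 and 0.220), and at r = 0.69 without MM 8 and MM 10. For Csf1r, r with the osteocyte list was 0.00 and r with the osteoclast effector list 0.73 (exact permutation p = 0.998 and 0.0360, adjusted 0.998 and 0.216). The latter was 0.34 without No MM 1 and MM 6 and so rested on those libraries. With the macrophage and osteoblast lists, r of Csf1r was 0.40 and 0.57. The osteoblast list had r = 0.61 with Tnfsf11 and 0.50 with Tnfrsf11b, and 0.29 and 0.20 without MM 6 and No MM 5. Csf1 had r = 0.65 with osteocytes, 0.69 with osteoblasts and 0.63 with osteoclast effectors. Without the 2 libraries farthest from each list's median, r of Csf1 was 0.28, 0.70 and 0.45. None of the 24 relations passed the adjustment.

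**Figure D5:**
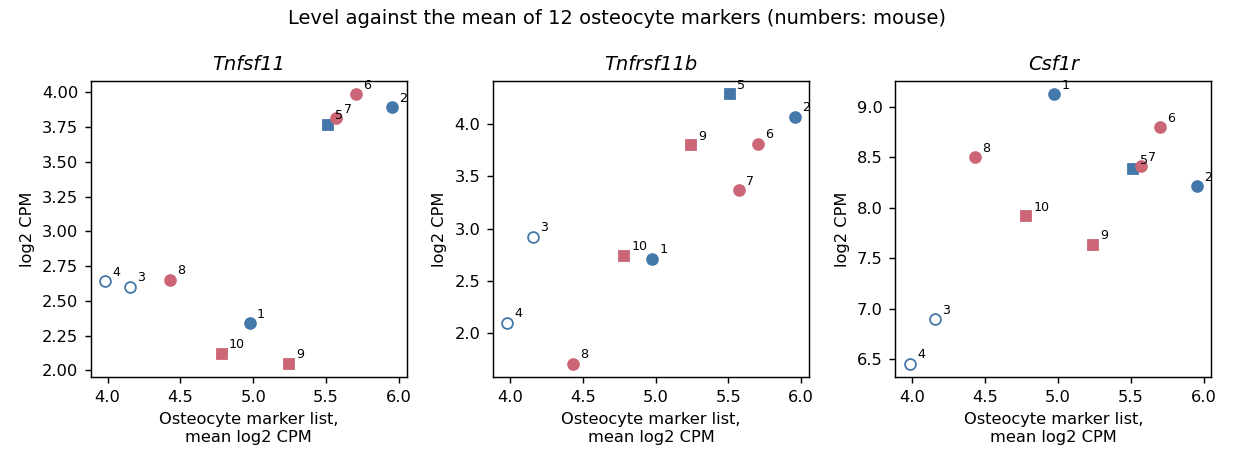
Log2 CPM of Tnfsf11, Tnfrsf11b and Csf1r (y axes) against the mean log2 CPM of 12 osteocyte markers (x axes) in the 10 libraries, with mouse numbers, No MM in blue and MM in red. Open circles are No MM 3 and No MM 4, and squares are the 3 libraries with Y-linked reads. The 4 libraries with the highest marker mean hold the 4 highest Tnfsf11 values, whereas Csf1r does not follow the list among the 8 filled points (r 0.00).

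Scaled to the osteocyte genes Dmp1, Mepe and Phex, Tnfsf11 had a geometric mean of 0.0740 in No MM and 0.0531 in MM. The difference was −0.48 on the log2 scale (exact permutation p = 0.365, adjusted 0.992). No MM 3 and No MM 4 were the highest of all libraries for Tnfsf11 by this measure, at 0.125 and 0.166, and MM 9 was the lowest, at 0.0277. The difference was 0.16 without No MM 3 and No MM 4 (exact permutation p = 0.679). For Tnfrsf11b on the same scale the difference was −0.49 (exact permutation p = 0.214, adjusted 0.992), and −0.03 without those 2 libraries (exact permutation p = 0.929).

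For each of the 6 genes, the genes with the most similar log2 CPM over the 10 libraries were ranked by Pearson's r, as a description without a test. All points share libraries, and r over the 8 libraries without No MM 3 and No MM 4 is given second. Tnfrsf11b was most similar to Jam2 (0.98 and 0.98), Adamtsl2 (0.97 and 0.98), Magi1 (0.96 and 0.96), Fgf1 (0.95 and 0.99) and the osteocyte gene Mepe (0.94 and 0.93), and 16 genes reached an r over 0.9. Tnfsf11 had 1 such gene, Pitx1 (0.90 and 0.90), a homeobox factor, followed by Adamts17, Gm17322, Rmdn2 and Hoxc11 (0.85 to 0.87). Il34 had 6 such genes, led by Nckap5 (0.95 and 0.92), Adamtsl3, Crym, Gdf6 and Srpk3. Tnfrsf11a, Csf1 and Csf1r had 244, 303 and 278 such genes. Tnfrsf11a was led by Lifr (0.98 and 0.95), Lrch1, S100b, Nab2 and Epb4.1l2. Csf1 was led by Ttc12 (0.98 and 0.96), Gadd45g, Igkv3-10, Igsf3 and Pde1a. Csf1r was led by 9030617O03Rik (0.99 and 0.98), Cmtm3, Cyp4v3 and Tgfbr2, among others.

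Among the 6 genes themselves, the receptors Tnfrsf11a and Csf1r were the most similar pair over the 10 libraries (r = 0.90), and r was 0.67 over the 8 libraries. Csf1 and Csf1r had an r of 0.86 over 10 and 0.51 over 8 libraries, and Tnfsf11 and Tnfrsf11b 0.58 and 0.57. Il34 and Csf1r had r = 0.23 over 10 libraries and r = −0.67 over 8. Tnfsf11 and Il34 were close to 0 over 10 libraries (r = 0.01).

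Genes downstream of RANK and CSF1R and other genes around this axis were counted from fixed lists. No gene of these lists passed the adjusted threshold in edgeR. In DESeq2 some did, among them Ikbkb and Ciita (DESeq2 adjusted p 0.0496 and 0.0345). Clec9a, a dendritic cell gene, and plasma cell genes such as Pou2af1 passed there too (DESeq2 adjusted p 0.0221 and 0.0171). Of 45 genes of RANK and M-CSF receptor signaling, all were tested, 28 had a log2 fold change above 0, and 4 were higher and 3 lower in MM at an unadjusted p under 0.05 (15.6% against 14.1% of all tested genes). Their median log2 fold change was 0.16, against −0.03 over all tested genes. Ikbkb, a kinase of the NF-κB pathway, was at 67.2 ± 10.3 CPM in No MM and 99.0 ± 14.1 CPM in MM, with no overlap (log2 fold change 0.56, SE 0.15, edgeR adjusted p 0.314), and was still at an unadjusted p under 0.05 without No MM 3 and No MM 4 (log2 0.48, edgeR adjusted p 0.643). Bcl6, a repressor, was higher in MM at an unadjusted p under 0.05 (log2 0.86, edgeR adjusted p 0.314), but not without No MM 3 and No MM 4 (log2 0.53, edgeR unadjusted p 0.063). Of the genes lower in MM, Blnk (log2 −2.13) encodes an adaptor also used by B cells and Prdm1 (−1.86) a factor also used by plasma cells. Map3k14 (−2.19) encodes the kinase NIK. The log2 values without No MM 3 and No MM 4 were −0.04 for Blnk, 0.07 for Prdm1 and 0.50 for Map3k14, so that the sign turned for Prdm1 and Map3k14. In that setting 3 of the 45 genes were higher and 0 lower in MM at an unadjusted p under 0.05, against 5.89% of all tested genes. Besides Ikbkb these were Map3k14 and Traf3 (log2 0.39), with edgeR unadjusted p of 0.038 and 0.044 and adjusted p of 0.643 for each. Nfatc1, the master factor of osteoclast formation, was at 83.8 ± 49.0 CPM in No MM and 96.2 ± 27.4 CPM in MM (log2 0.20, edgeR adjusted p 0.843).

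Among 30 cytokines, hormones and factors known to act on Tnfsf11 in stroma, 28 were tested and 22 had a log2 fold change above 0. At an unadjusted p under 0.05, 3 were higher in MM (10.7%), against 14.1% of all tested genes in both directions and 3.81% higher. These were Il17ra (log2 0.63), Il1r1 (0.54) and Tnf (1.23), the last at 1.75 ± 0.81 CPM in No MM and 4.12 ± 3.24 CPM in MM, with edgeR adjusted p of 0.326, 0.329 and 0.332. Without No MM 3 and No MM 4, 0 of the 28 were at an unadjusted p under 0.05, against 5.89% of all tested genes. The list median moved from 0.35 to 0.09. Of 16 other ligands and receptors of both systems, 13 were tested. At an unadjusted p under 0.05, 2 were higher in MM and 1 was lower (23.1%, against 14.1% of all tested genes). The higher genes were Csf2ra (log2 1.10) and Csf3r (144 ± 94.8 CPM in No MM and 287 ± 95.2 CPM in MM). The lower gene was Sdc1 (−1.97). Lgr4, a further receptor for RANKL, was at 31.2 ± 14.8 CPM in No MM and 19.2 ± 5.99 CPM in MM (log2 −0.71, edgeR adjusted p 0.380). It stood at 46.2 to 46.4 CPM in No MM 3 and No MM 4 and 13.2 to 29.6 CPM in the other 8 libraries, and the log2 value without those 2 was −0.16. Of 15 secreted inhibitors of osteoclast formation, 13 were tested. At an unadjusted p under 0.05, 1 of them, Sema3a, was lower in MM (7.69%, against 14.1% of all tested genes). It was at 26.9 ± 25.1 CPM in No MM and 10.2 ± 1.82 CPM in MM (log2 −1.40, edgeR adjusted p 0.335). Sema3a stood at 47.8 to 59.9 CPM in No MM 3 and No MM 4 and 6.39 to 13.04 CPM in the other 8 libraries. Without those 2 libraries, 0 genes of either list were at an unadjusted p under 0.05, against 5.89% of all tested genes.

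Among 6 genes that the study linked to Tnfsf11, among them Ciita, Tfap2a and the parallel target Sost, 1 was at an unadjusted p under 0.05. This was a share of 16.7%, against 14.1% of all tested genes. The study chose some of the 6 genes on these samples, so the count is not independent of its choice. The 1 gene was Ciita, a transcriptional coactivator, at 14.7 ± 5.24 CPM in No MM and 30.98 ± 6.54 CPM in MM. The groups did not overlap for Ciita (log2 fold change 1.08, SE 0.27, edgeR adjusted p 0.314, DESeq2 adjusted p 0.0345). Tfap2a, which encodes AP2 alpha, was listed at 0 to 8.09 CPM (log2 −1.87, SE 1.29, edgeR adjusted p 0.509). It was at 4.69 to 8.09 CPM in No MM 3 and No MM 4 and 0 to 2.20 CPM in the other 8 libraries, and its log2 value turned to 2.26 without those 2 (SE 1.12, edgeR adjusted p 0.643).

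Of 19 osteoclast effectors, the products that mature osteoclasts use to resorb bone, 0 were at an unadjusted p under 0.05, against 14.1% of all tested genes. Of the 19, 10 had a log2 fold change above 0, and the median was 0.00. When No MM 3 and No MM 4 were left out, 2 of 19 were above 0 and the median was −0.52. In that setting 0 were at an unadjusted p under 0.05, against 5.89% of all tested genes. Of 19 monocyte and macrophage genes, 1 was higher in MM at an unadjusted p under 0.05 (5.26%, against 3.81% of all tested genes). This was Ccr2 (log2 1.08, edgeR adjusted p 0.34). The median of the list was 0.39, and it was 0.06 without No MM 3 and No MM 4. The 12 plasma cell genes were all lower in MM at an unadjusted p under 0.05 (median −2.04), against 10.3% of all tested genes. They summed to 11770 to 12200 CPM in No MM 3 and No MM 4 against 706 to 1429 CPM elsewhere. Without the 2 libraries 1 of the 12 was lower, against 5.89% of all tested genes in either direction. At the same threshold, 2 of 15 T and NK cell genes and 2 of 11 dendritic cell genes were higher in MM (3.81% of all tested genes were). Their medians were 0.39 and 0.75, and 0.24 and 0.25 without No MM 3 and No MM 4. The study picked 1 of the 2 dendritic cell genes, Clec9a, as a candidate on these samples, so that count is not independent of its choice. The lists for osteocytes (median 0.04), osteoblasts (0.20), reticular stromal cells and adipocytes (0.43) and endothelial cells (−0.24) held 0 genes at an unadjusted p under 0.05. So did those for B cells (0.69), neutrophils (0.19), erythroid cells (−0.25) and skeletal muscle (−0.76). With No MM 3 and No MM 4 left out, the medians turned to −0.19 for osteocytes, −0.41 for osteoblasts and −0.34 for neutrophils. They were 0.05 for reticular stromal cells and adipocytes, −0.37 for endothelial cells, 0.12 for B cells, −0.94 for erythroid cells and −0.95 for skeletal muscle.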

How the data were processed

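Gene expression was measured by RNA-seq in osteocyte libraries of 10 mice (5 No MM, 5 MM), prepared with a strand-specific total RNA kit and read from both ends. Per the labels, the submitters' processing notes name FastQC 0.11.5 and STAR, and the counting program, annotation and use of strand are not given in the sources used here. The authors deposited whole-number read counts per gene, which were used. Other deposited columns hold a size-factor-scaled signal, FPKM, the log2 fold change of the authors with its p-values, and gene lengths. Of these, only the gene lengths were used.

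Counts were analyzed in R 4.3.3 with edgeR 4.0.16. Genes were filtered with filterByExpr, scaled by TMM and tested by the quasi-likelihood test for MM against No MM without covariates, with Benjamini-Hochberg adjustment over 16186 genes and a threshold of 0.05. Log2 CPM used a prior count of 2 for correlations and list means, and no prior count for the log2 differences and their permutation tests. RPKM were computed from the counts and the gene lengths in the table. Single values and ratios were compared by two-sided exact permutation tests, and the order of levels by exact sign-flip permutation. Ratio intervals came from Wilson intervals at 95%, and they and the limit of 3 counts cover counting error only, since reads are not independent molecules. Scripts were tested on simulated counts.

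The 6 genes, the 18 gene lists and the tests were chosen with earlier results of these data known. Named genes were the 6 genes, the genes of the lists at an unadjusted p under 0.05 (at most 4 a list, lowest p first), defining markers, genes of the ratios and the 5 most similar genes of each. Some genes of these sets are not reported here. Map3k14, Traf3, the antisense genes, immunoglobulin genes, Xist and the Y-linked genes were named in addition, after their values were seen. No libraries of the same group were duplicates of each other (lowest chi-square per degree of freedom 46.9). Pairs of an MM and a No MM library were not compared in this way. Alternatives were DESeq2 1.42.0, RLE and upper quartile scaling, other filters on low counts, immunoglobulin genes left out, No MM 3 and No MM 4 left out, 1 surrogate variable (sva 3.50.0) and each mouse left out. A Y-linked covariate and the 7 libraries without Y-linked reads were added after seeing the data.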

Additional observations from a re-analysis of the deposited data

Results flagged for a closer look

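In No MM, the Il34 level of No MM 2 (15.1 CPM) stood apart from the other 4 mice, which lay between 3.12 and 6.40 CPM. Its gap to the nearest value was 0.726 of the group's range, against a critical value of 0.71 (Dixon's test at 95%). Of the 24 sets of values tested in this way, 1 was found, where chance alone gives about 1 in 20. The edgeR log2 fold change of Il34 without No MM 2 was 1.02 (SE 0.44, edgeR unadjusted p 0.044, adjusted p 0.274), against 0.59 with all 10 libraries.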

How the results depend on the processing

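No paired analysis was possible because the labels pair no MM mouse with any control. Over 20 alternatives for each of the 6 genes and 14 for each ratio, no value passed the adjusted threshold, and DESeq2 called 179 genes of the table (2721 at an unadjusted p under 0.05). Without each mouse in turn, edgeR called 0 to 0 genes. The direction for Csf1 was the same in all 20 alternatives (0.19 to 1.09). Without No MM 3 and No MM 4 the log2 fold change turned to −0.078 for Tnfrsf11a and −0.34 for Csf1r, and with 1 surrogate variable to −0.074 and −0.32. Within the 7 libraries the edgeR log2 fold change turned to 0.58 for Tnfsf11, 0.065 for Tnfrsf11b and −0.016 for Il34. For Il34 the difference of mean log2 CPM in these libraries was 0.12, so the sign there depended on the measure. Among the ratios, leaving out No MM 3 and No MM 4 gave −0.21 for Csf1 to Il34, 0.16 for Tnfsf11 to the osteocyte genes and −0.33 for Csf1r to the macrophage genes. The difference in medians gave 0.063 for Tnfsf11 to the osteocyte genes and −0.11 for Tnfrsf11a to the osteoclast genes. The level of Tnfrsf11b over Tnfrsf11a was −0.075 without No MM 3 and No MM 4. The causes were not tested.

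With each mouse left out in turn, the log2 fold change ranged from −0.35 to 0.20 for Tnfsf11, −0.39 to 0.13 for Tnfrsf11b, 0.09 to 0.73 for Tnfrsf11a, 0.35 to 0.96 for Csf1, 0.28 to 1.02 for Il34 and −0.043 to 0.60 for Csf1r. The difference in log2 ratio ranged from −0.27 to 0.40 for Tnfsf11 to Tnfrsf11b and −0.12 to 0.54 for Csf1 to Il34. Against their marker genes it ranged from −0.69 to −0.19 for Tnfsf11, −0.65 to −0.26 for Tnfrsf11b, −0.10 to 0.20 for Csf1r and −0.015 to 0.50 for Tnfrsf11a. Csf1r over Csf1 and Csf1 over Il34 kept their direction and passed the test in every case (1.12 to 1.31 and 2.27 to 2.57). The other neighbors in the order ranged from 0.084 to 0.46 for Il34 over Tnfsf11, 0.045 to 0.34 for Tnfsf11 over Tnfrsf11b and −0.070 to 0.26 for Tnfrsf11b over Tnfrsf11a. At an unadjusted p under 0.05, DESeq2 held 12 of 45 genes of RANK and M-CSF receptor signaling. It held 6 of 28 in the cytokine list and 3 of 19 macrophage genes, against 16.9% of all tested genes.

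With 5 mice per group and these spreads, the 95% intervals of the 6 fold changes reached from −1.32 to 1.89 on the log2 scale, and each included 0 and a log2 change of 1 in at least 1 direction. P-values measure the spread between mice. The 2 libraries rich in immunoglobulin reads are both No MM, and the libraries with Y-linked reads are unevenly divided between the groups. No setting left out both sets of libraries at once.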
